A study of Homo sapiens with 6 samples.

Results

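The genes of transforming growth factor beta (TGF-beta) and bone morphogenetic protein (BMP) signalling were examined in U2OS cells, a human osteosarcoma cell line, after knockdown of the histone demethylase LSD1. The genes were chosen by a fixed list of 53 symbols that covers ligands, antagonists, receptors, SMADs and target genes. Of these 53 genes, 50 have a row in the deposited table of 15585 genes, and 44 had enough reads to be tested among 11844 genes. GREM1, ID3 and ID4 were not analysed here. Total RNA was sequenced from 3 libraries of cells transfected with control siRNA (siCTR) and 3 libraries of cells transfected with LSD1 siRNA (siLSD1), all for 48 h. The labels give no other difference in genotype or treatment between the groups, and both groups carry the transfection itself. Effects of the siRNAs other than on LSD1 were not tested. The sources used here do not say which LSD1 siRNA was used for these libraries, nor whether the 3 libraries of a group came from separate cultures, so p-values measure the spread between these libraries, which may be technical.

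In this pathway, a dimeric ligand of the TGF-beta family brings together type II and type I receptor kinases at the cell surface. The type I receptor then phosphorylates receptor-regulated SMADs, which join SMAD4 and enter the nucleus to regulate genes. SMAD2 and SMAD3 serve TGF-beta and activin, and SMAD1, SMAD5 and SMAD9 serve BMPs. In cells of the bone lineage both branches act on matrix production and differentiation, and TGF-beta is stored in the matrix in a latent complex with LTBP proteins. The ID genes are classical targets of the BMP branch. TGFBI and CCN2 are classical targets of the TGF-beta branch.

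The promoter windows of the 5 genes on which most of the following results turn are given first, so that their sequence can be read beside their values. TGFBR1 and TGFBR2 encode the type I and type II receptors of TGF-beta, LTBP1 encodes a latent TGF-beta binding protein, TGFBI encodes a secreted matrix protein induced by TGF-beta, and ID1 encodes an inhibitor of basic helix-loop-helix transcription factors. Each window runs from 250 bases before to 50 bases after the RefSeq gene start (GRCh38.p14), 5′ to 3′ on the strand of the gene. RefSeq starts can differ from the GENCODE gene spans given below. The TGFBR2 window ends at 30606405, before the GENCODE start at 30606601. The TGFBR1 window begins at 99104863, inside the GENCODE span that starts at 99104038. Capitals mark CAGAC or its reverse complement GTCTG, a SMAD half-site, and GGCGCC, a GC-rich SMAD site.
TGFBR1 (chr9:99104863-99105162, + strand): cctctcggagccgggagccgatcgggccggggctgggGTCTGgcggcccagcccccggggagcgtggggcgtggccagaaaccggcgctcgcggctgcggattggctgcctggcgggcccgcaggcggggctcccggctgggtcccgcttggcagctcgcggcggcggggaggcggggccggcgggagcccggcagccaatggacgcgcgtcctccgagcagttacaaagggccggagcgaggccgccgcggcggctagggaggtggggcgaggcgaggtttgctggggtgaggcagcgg
TGFBR2 (chr3:30606106-30606405, + strand): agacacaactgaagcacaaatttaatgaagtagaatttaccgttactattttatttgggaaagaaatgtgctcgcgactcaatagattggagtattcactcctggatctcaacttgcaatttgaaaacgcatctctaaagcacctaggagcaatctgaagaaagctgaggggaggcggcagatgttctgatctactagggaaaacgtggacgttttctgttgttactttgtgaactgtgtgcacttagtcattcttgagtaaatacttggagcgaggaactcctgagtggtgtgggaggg
LTBP1 (chr2:32946703-32947002, + strand): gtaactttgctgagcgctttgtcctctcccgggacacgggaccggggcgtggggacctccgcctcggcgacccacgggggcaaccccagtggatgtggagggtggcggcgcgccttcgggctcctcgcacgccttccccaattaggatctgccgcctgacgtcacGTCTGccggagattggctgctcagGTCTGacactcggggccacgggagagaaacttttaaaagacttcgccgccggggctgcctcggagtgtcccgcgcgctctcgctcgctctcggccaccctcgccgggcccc
TGFBI (chr5:136028738-136029037, + strand): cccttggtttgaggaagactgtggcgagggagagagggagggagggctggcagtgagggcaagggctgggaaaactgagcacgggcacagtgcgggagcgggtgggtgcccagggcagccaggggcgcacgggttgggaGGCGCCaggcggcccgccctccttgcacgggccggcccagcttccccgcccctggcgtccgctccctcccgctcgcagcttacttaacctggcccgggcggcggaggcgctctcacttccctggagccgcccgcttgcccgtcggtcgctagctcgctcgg
ID1 (chr20:31605039-31605338, + strand): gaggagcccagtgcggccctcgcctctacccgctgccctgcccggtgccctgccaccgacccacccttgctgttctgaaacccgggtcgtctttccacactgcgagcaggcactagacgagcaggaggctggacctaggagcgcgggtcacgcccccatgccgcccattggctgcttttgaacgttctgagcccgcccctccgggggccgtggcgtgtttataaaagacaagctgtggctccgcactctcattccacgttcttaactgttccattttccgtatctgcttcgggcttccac
The half-site CAGAC was found on either strand at 1 place in the TGFBR1 window and at 2 places in the LTBP1 window, and GGCGCC was found at 1 place in the TGFBI window. The TGFBR2 and ID1 windows hold neither motif, which says only that these letters are not in these 300 bases. Such matches are common. CAGAC was in 45.0% and GGCGCC in 19.0% of 27305 promoter windows of this length, whereas among the 47 windows available for the signalling genes CAGAC was in 20 (42.6%) and GGCGCC in 19 (40.4%). Among the 9583 windows matched to tested genes, GGCGCC was in 31.7%. The AP-1 motif TGANTCA, searched on both strands, was in 2 of the 47 windows and in none of the 5 shown, against 7.76% of all windows and 4.41% of those matched to tested genes. The windows differ in base composition, from 42.3% GC for TGFBR2 to 78.7% GC for TGFBR1.

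The knockdown was checked first on its target. KDM1A, which encodes LSD1 (chromosome 1, 23019443 to 23083689, + strand, GENCODE release 44 on GRCh38), had read counts of 6140, 6493 and 6573 under siCTR and of 1110, 1198 and 1246 under siLSD1, a log2 fold change of -2.44 (SE 0.11, Benjamini-Hochberg adjusted p = 2.27e-07 in edgeR). The libraries held 12513511 to 13561344 counted reads. The level of GC-rich relative to GC-poor genes varied between libraries. The median log-CPM difference between GC-rich and GC-poor genes, each centred on the mean of all libraries, was 0.21, -0.03 and -0.08 in siCTR replicates 1, 2 and 3 and 0.31, 0.02 and -0.39 in siLSD1 replicates 1, 2 and 3. The markers of the cell line were mixed. VIM, KRT8 and KRT18 were abundant, as was the osteoblast enzyme gene ALPL with 123 ± 6.94 FPKM (SD, n = 3) in siCTR, whereas the osteoblast regulators RUNX2 and SP7 had at most 4 reads in any library, the matrix gene SPARC at most 3 and BGLAP at most 12. The epithelial genes KRT19, KRT5 and KRT14 had at most 5 reads and EPCAM was at 1.28 ± 0.249 FPKM (SD, n = 3) in siCTR, and PTPRC and PECAM1, of leukocytes and endothelium, had at most 3 reads. Of the 6 leukocyte and endothelial markers with a row, 3 were tested and 1 rose, the endothelial gene VWF, from 0.734 ± 0.180 to 1.35 ± 0.0937 FPKM (SD, n = 3 each, Benjamini-Hochberg adjusted p = 0.0418 in edgeR, up to 0.181 with 1 library left out). The summed level of this list was 14.6 to 15.9 CPM in the siCTR and 19.5 to 23.0 CPM in the siLSD1 libraries. The summed level of the 7 epithelial markers was 2959 to 3581 CPM in the siCTR and 2437 to 3036 CPM in the siLSD1 libraries, with log2 fold changes of -0.14 for KRT8, -0.32 for KRT18 and 0.77 for CDH1. Of these genes, KRT18 and CDH1 did not overlap between the groups, and the adjusted p of CDH1 was 0.0699 and, with the GC and length correction, 0.0267 (edgeR, Benjamini-Hochberg). The part of these markers in the following differences was not tested. In such bulk libraries a lower share of cells that express a gene and less of its RNA per cell cannot be told apart.

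Of the 44 tested signalling genes, 3 rose after LSD1 knockdown at an adjusted p under 0.05, namely TGFBI, TGFBR1 and LTBP1, and 0 fell. Over all tested genes 1.07% rose and 0.371% fell at this threshold (1.44% in either direction). At an unadjusted p under 0.05, 8 of the 44 were higher and 4 lower, against 7.48% and 6.55% of all tested genes (14.0% in either direction). DESeq2 called 4 higher and 1 lower at an adjusted p under 0.05, the added genes being TGFBR2 and ID1, where it called 1.77% of all tested genes higher and 0.954% lower (2.73% in either direction). The median log2 fold change was -0.06 over the 44 genes and -0.01 over all tested genes, with 19 of the 44 above and 25 below 0. Of all 11844 tested genes, 5598 were above and 6246 below 0. For 15 of the 44 genes the siCTR and siLSD1 libraries did not overlap in CPM, 9 of them with higher siLSD1 values and 6 with lower. This compares with 21.4% of all tested genes, 11.4% with higher and 9.97% with lower siLSD1 values. With the correction for the GC content and length of the genes, 4 signalling genes were called higher (TGFBI, TGFBR1, LTBP1 and TGFBR2) and 3 lower (ID1, LTBP3 and SMURF1), while the share of all tested genes called in that fit was 4.5% higher and 2.91% lower (7.41% in either direction).

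**Figure D1:**
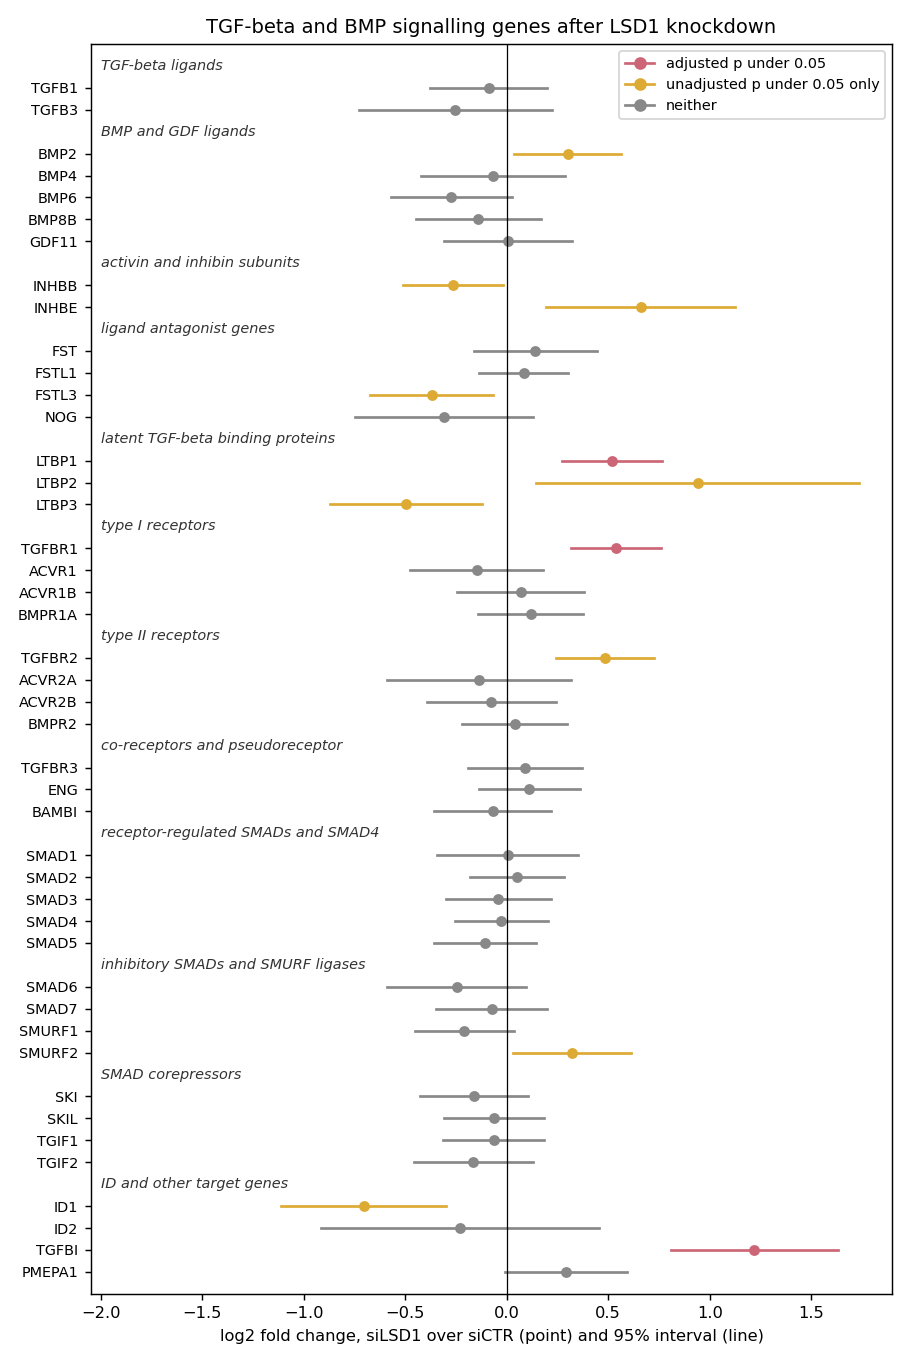
Log2 fold change (siLSD1 over siCTR, points) with its 95% interval (lines) for the 44 tested genes, grouped by role, from edgeR's fit on 3 libraries per group. TGFBI, TGFBR1 and LTBP1 are red (adjusted p under 0.05), 9 further genes are yellow (unadjusted p under 0.05 only), and the intervals of the 7 SMAD genes include 0.

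The genes covered a wide range of levels, compared here in FPKM, which are scaled to gene length and to the reads of the library. In siCTR cells 43 of the 50 genes had a mean of at least 1 FPKM and 18 of at least 10. FSTL3, an inhibitor of activins, was the most abundant with 153 ± 15.1 FPKM (SD, n = 3), followed by the secreted glycoprotein gene FSTL1 with 92.5 ± 2.96 FPKM (SD, n = 3) and ENG, a co-receptor for TGF-beta and BMPs, with 44.01 ± 4.96 FPKM (SD, n = 3). These 3 genes, at 153, 92.5 and 44.01 FPKM, were separated from one another by more than their SD. At the other end, 6 genes had too few reads to be tested. BMP7 had 1 read in siCTR replicate 1 and 0 in the others, and LEFTY2 had 1 read in siLSD1 replicate 3 and 0 in the others, where a count of 0 allows up to 3 reads in a library. INHBA, which encodes the activin A subunit, had read counts of 1, 1 and 1 under siCTR and of 3, 0 and 0 under siLSD1. The BMP antagonist gene CHRD had read counts of 1, 1 and 2 under siCTR and of 6, 0 and 0 under siLSD1. BMPR1B, a type I BMP receptor gene, had read counts of 0, 0 and 3 under siCTR and of 4, 3 and 1 under siLSD1. SMAD9 had read counts of 8, 1 and 5 under siCTR and of 10, 2 and 10 under siLSD1. No difference in these 6 genes was detectable at this depth.

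**Figure D2:**
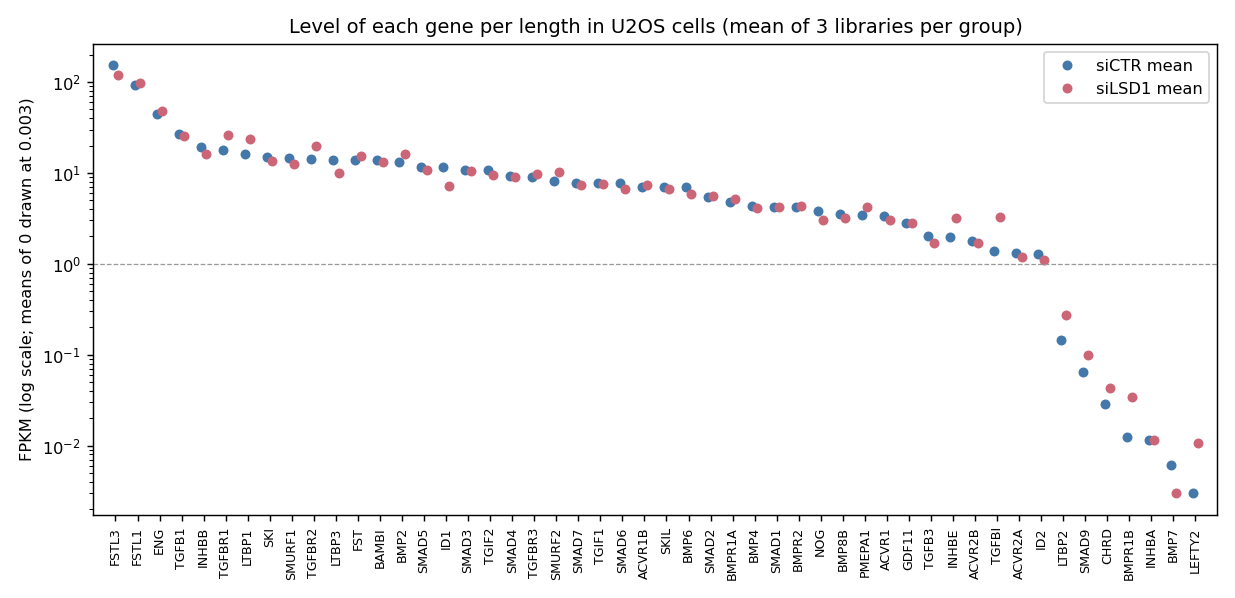
Mean FPKM (log axis) of the 50 genes in siCTR (blue) and siLSD1 (red) libraries, 3 per group, in the order of the siCTR level. The dashed line marks 1 FPKM. FSTL3 leads with 153 FPKM in siCTR, and 7 genes lie below the line.

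Among the ligand genes, edgeR called 0 of 9 tested at an adjusted p under 0.05, against 1.44% of all tested genes, and 3 of the 9 had an unadjusted p under 0.05, against 14.0%. TGFB1, which encodes the main TGF-beta of most cells, had read counts of 987, 1007 and 942 under siCTR and of 1046, 945 and 773 under siLSD1. Its groups overlapped, and the log2 fold change was -0.09 (95% interval -0.38 to 0.20). TGFB3 had 58 to 90 reads in a library and a log2 fold change of -0.25 (95% interval -0.73 to 0.22), also with overlapping groups.
BMP2, a ligand that drives bone formation, had read counts of 639, 671 and 566 under siCTR and of 760, 740 and 818 under siLSD1. Each siLSD1 library lay above each siCTR library in CPM, with a log2 fold change of 0.30 (SE 0.12, unadjusted p = 0.0282, Benjamini-Hochberg adjusted p = 0.281 in edgeR). BMP6 had a negative log2 fold change, with read counts of 263, 239 and 263 under siCTR and of 235, 180 and 221 under siLSD1. Its log2 fold change was -0.27 (95% interval -0.57 to 0.03), and the groups did not overlap in CPM. For BMP4, BMP8B and GDF11 the groups overlapped and the log2 fold changes lay between -0.14 and 0.01.
The activin subunit genes INHBB and INHBE had log2 fold changes of opposite sign. INHBE, which encodes the activin E subunit, had read counts of 68, 51 and 72 under siCTR and of 118, 104 and 80 under siLSD1, a log2 fold change of 0.66 (SE 0.22, unadjusted p = 0.00912, Benjamini-Hochberg adjusted p = 0.179 in edgeR). INHBB, at 19.4 ± 1.44 FPKM (SD, n = 3) in siCTR the more abundant of the pair, had read counts of 855, 819 and 771 under siCTR and of 713, 651 and 678 under siLSD1. Its log2 fold change was -0.26 (SE 0.11, unadjusted p = 0.0372, Benjamini-Hochberg adjusted p = 0.313 in edgeR). Neither pair of groups overlapped in CPM, and neither gene passed the adjusted threshold.

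The proteins that hold ligands in a latent or inactive state were the role in which LTBP1 rose. LTBP1 (chromosome 2, 32946953 to 33399509, + strand) had read counts of 1518, 1219 and 1544 under siCTR and of 2065, 1914 and 2166 under siLSD1. Its level went from 109 ± 12.1 CPM to 156 ± 3.96 CPM (SD, n = 3 each), a 1.43-fold rise, with every siLSD1 library above every siCTR library. The log2 fold change was 0.52 (SE 0.11, Benjamini-Hochberg adjusted p = 0.0434 in edgeR). This call was lost with any single library left out, at Benjamini-Hochberg adjusted edgeR p-values of 0.0588, 0.0710 and 0.123 without siCTR replicates 1, 2 and 3, and of 0.100, 0.193 and 0.0983 without siLSD1 replicates 1, 2 and 3. With scaling by library size only, the Benjamini-Hochberg adjusted edgeR p was 0.0538.
LTBP2, a scarce relative at 0.144 ± 0.0742 FPKM (SD, n = 3) in siCTR, had read counts of 24, 16 and 8 under siCTR and of 35, 29 and 29 under siLSD1. Its log2 fold change of 0.94 (95% interval 0.15 to 1.74) had an unadjusted p of 0.0239 and an adjusted p of 0.263 from edgeR with Benjamini-Hochberg adjustment, and it was 0.61 without siCTR replicate 3 and 1.36 without siCTR replicate 1. LTBP3, the third such gene in the list, had a negative log2 fold change, with read counts of 1306, 1068 and 995 under siCTR and of 1003, 784 and 610 under siLSD1. The groups overlapped only in that siLSD1 replicate 1, at 74.7 CPM, lay just above siCTR replicate 3, at 74.0 CPM. The log2 fold change was -0.49 (SE 0.17, Benjamini-Hochberg adjusted p = 0.211 in edgeR), and it was -0.32 without siLSD1 replicate 3. LTBP3 has the highest GC content of the 44 genes (67.7%), and with the GC and length correction its log2 fold change was -0.31 (Benjamini-Hochberg adjusted p = 0.0284 in edgeR).
Among the soluble antagonists, FSTL3 had read counts of 5463, 5858 and 4972 under siCTR and of 4923, 4230 and 3485 under siLSD1. The groups did not overlap in CPM, and siLSD1 replicate 3, the library with the lowest GC-rich to GC-poor difference, was the lowest. The log2 fold change of FSTL3 was -0.37 (SE 0.14, unadjusted p = 0.0203, Benjamini-Hochberg adjusted p = 0.248 in edgeR), -0.20 with the GC and length correction, and -0.23 without siLSD1 replicate 3. FST, FSTL1 and NOG, which encode follistatin, a follistatin-like glycoprotein and the BMP antagonist noggin, had overlapping groups and log2 fold changes of 0.14, 0.08 and -0.31.

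Among the receptor genes, TGFBR1 rose, TGFBR2 missed the adjusted threshold narrowly, and the tested activin and BMP receptor genes were not called. TGFBR1 (chromosome 9, 99104038 to 99154192, + strand) had read counts of 1508, 1532 and 1614 under siCTR and of 2223, 2187 and 2362 under siLSD1. The 3 siCTR libraries lay close together at 118 ± 2.06 CPM (SD, n = 3), and the siLSD1 libraries lay above all of them at 172 ± 5.57 CPM (SD, n = 3), a 1.45-fold rise. Its log2 fold change was 0.54 (SE 0.10, 95% interval 0.32 to 0.76, Benjamini-Hochberg adjusted p = 0.0215 in edgeR). TGFBR1 kept a log2 fold change between 0.52 and 0.56 when any 1 library was left out. The call was kept without siCTR replicate 2 and without siLSD1 replicate 3, and it was lost without siCTR replicate 1 or 3 and without siLSD1 replicate 1 or 2, with Benjamini-Hochberg adjusted edgeR p-values of 0.0684, 0.0987, 0.0507 and 0.160.
TGFBR2 (chromosome 3, 30606601 to 30694142, + strand), the partner of TGFBR1 in the receptor complex, had read counts of 861, 828 and 959 under siCTR and of 1194, 1145 and 1370 under siLSD1. Each siLSD1 library was above each siCTR library, at 94.1 ± 6.59 against 67.4 ± 3.54 CPM (SD, n = 3 each). With a log2 fold change of 0.48 (SE 0.11, unadjusted p = 0.000878) it was of a size close to that of TGFBR1, but its adjusted p was 0.0562 from edgeR with Benjamini-Hochberg adjustment, just outside the threshold. For TGFBR2 the Benjamini-Hochberg adjusted p was 0.0103 from DESeq2 and 0.00317 with the GC and length correction in edgeR, whereas it was 0.0599 with limma-voom, 0.0655 in edgeR with the second counting and 0.0885 to 0.239 in edgeR with 1 library left out.
TGFBR3 and ENG, co-receptors that present ligand, had overlapping groups with log2 fold changes of 0.09 and 0.11. ENG had read counts of 2155, 1744 and 1998 under siCTR and of 2335, 1981 and 2071 under siLSD1. BAMBI, a pseudoreceptor without a kinase domain, was at -0.07 on the same scale, with a 95% interval of -0.36 to 0.22.
ACVR1, ACVR1B and BMPR1A, the other type I receptor genes with enough reads, had log2 fold changes of -0.15, 0.07 and 0.12. ACVR1 had read counts of 148, 166 and 149 under siCTR and of 137, 136 and 146 under siLSD1, and its groups did not overlap in CPM although the unadjusted p was 0.345. The type II receptor genes ACVR2A, ACVR2B and BMPR2 had overlapping groups and log2 fold changes of -0.14, -0.08 and 0.04. Whether TGFBR1 and TGFBR2 differ in response from these receptors was not tested.

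**Figure D3:**
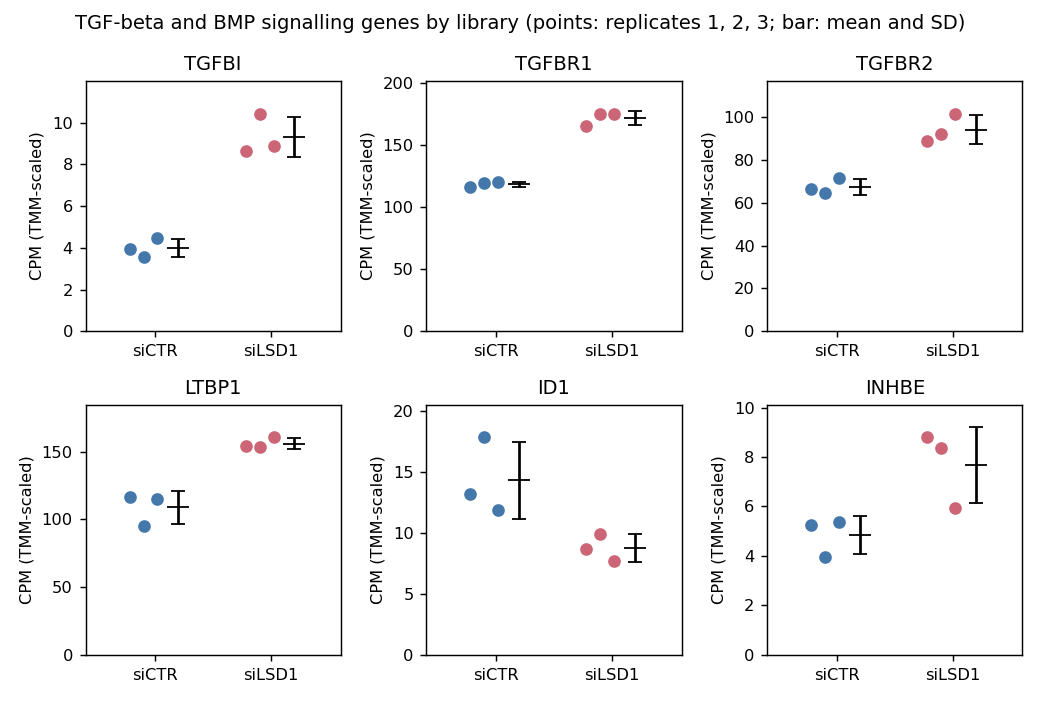
TMM-scaled CPM in each library (points, replicates 1, 2 and 3 from left to right) with the mean and SD of each group for the 6 genes with the smallest p. All y axes start at 0. In each of the 6 panels the siCTR and siLSD1 libraries do not overlap.

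The SMAD genes, which encode the transducers of the pathway, showed no called difference. None of the 7 tested reached an unadjusted p under 0.05 with edgeR, and DESeq2 called 0 of them at an adjusted p under 0.05, where the shares over all tested genes were 14.0% and 2.73%, so that few or no calls among 7 genes are near the background. For SMAD1, SMAD2, SMAD3, SMAD4 and SMAD5 the 95% intervals of all 5 log2 fold changes lay within -0.5 and 0.5. SMAD2, with read counts of 2301, 2619 and 2591 under siCTR and of 2531, 2574 and 2673 under siLSD1, had a log2 fold change of 0.05 (95% interval -0.18 to 0.28). SMAD3, its partner in the TGF-beta branch, had read counts of 1134, 880 and 1067 under siCTR and of 1040, 942 and 1019 under siLSD1, with a log2 fold change of -0.04 (95% interval -0.30 to 0.22). The common partner SMAD4 had 997 to 1105 reads in all 6 libraries and a log2 fold change of -0.03 (95% interval -0.25 to 0.20). Of the BMP SMADs, SMAD5 was the more abundant at 11.7 ± 0.689 FPKM (SD, n = 3) in siCTR against 4.26 ± 0.377 FPKM (SD, n = 3) for SMAD1, with log2 fold changes of -0.11 and 0.004.
The inhibitory SMAD genes are themselves induced by the pathway. SMAD7, which blocks both branches, had read counts of 510, 428 and 458 under siCTR and of 476, 434 and 418 under siLSD1, with overlapping groups and a log2 fold change of -0.07 (95% interval -0.35 to 0.20). SMAD6, which acts mainly on the BMP branch, had read counts of 415, 411 and 347 under siCTR and of 375, 347 and 268 under siLSD1, with a log2 fold change of -0.25 (95% interval -0.59 to 0.09).
The ubiquitin ligase genes SMURF1 and SMURF2, whose products mark receptors and SMADs for degradation, had log2 fold changes of opposite sign, without overlap of the groups in CPM. SMURF2 had read counts of 316, 272 and 354 under siCTR and of 371, 369 and 439 under siLSD1, a log2 fold change of 0.32 (SE 0.13, unadjusted p = 0.0326, Benjamini-Hochberg adjusted p = 0.298 in edgeR). SMURF1 had read counts of 1127, 991 and 1189 under siCTR and of 990, 942 and 930 under siLSD1, a log2 fold change of -0.21 (unadjusted p = 0.0850), and an adjusted p of 0.0454 with the GC and length correction in edgeR with Benjamini-Hochberg adjustment.
The corepressor genes SKI, SKIL, TGIF1 and TGIF2, which restrain SMAD-driven transcription, had overlapping groups. Their log2 fold changes were -0.16, -0.06, -0.06 and -0.17, and the 95% intervals of all 4 lay within -0.5 and 0.5.

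Target genes showed the largest differences of the list in both directions. TGFBI (chromosome 5, 136028988 to 136063818, + strand) had read counts of 51, 46 and 60 under siCTR and of 116, 130 and 120 under siLSD1. Its level was low, at 1.39 ± 0.162 FPKM (SD, n = 3) in siCTR, and it rose 2.33-fold to 3.24 ± 0.322 FPKM (SD, n = 3). The log2 fold change of 1.22 (SE 0.19, Benjamini-Hochberg adjusted p = 0.00776 in edgeR) was the largest of the 44 genes, and it stayed between 1.14 and 1.31 with an adjusted p of at most 0.0453 (edgeR, Benjamini-Hochberg adjustment) when any 1 library was left out.
PMEPA1, which is induced by TGF-beta and feeds back on the receptor-regulated SMADs, had read counts of 245, 227 and 238 under siCTR and of 283, 250 and 341 under siLSD1. Every siLSD1 library was above every siCTR library in CPM, but the log2 fold change of 0.29 had a 95% interval of -0.01 to 0.59.
ID1 (chromosome 20, 31605283 to 31606515, + strand), the BMP target, had read counts of 171, 229 and 160 under siCTR and of 116, 124 and 104 under siLSD1, and every siLSD1 library was below every siCTR library. Its level was 11.6 ± 2.40 FPKM (SD, n = 3) in siCTR and 7.11 ± 0.909 FPKM (SD, n = 3) in siLSD1. The log2 fold change was -0.71 (SE 0.19, unadjusted p = 0.00235), and the adjusted p of 0.0920 from edgeR with Benjamini-Hochberg adjustment missed the threshold. For ID1 it was 0.0384 with DESeq2 and 0.0294 with the GC and length correction in edgeR, whereas it was 0.118 with limma-voom and 0.0963 to 0.236 in edgeR with 1 library left out, all with Benjamini-Hochberg adjustment. Without siCTR replicate 2, the library with the most ID1 reads, the log2 fold change was -0.51. ID2 had read counts of 27, 27 and 54 under siCTR and of 27, 28 and 37 under siLSD1, a log2 fold change of -0.23 whose 95% interval of -0.91 to 0.45 leaves its direction unresolved.

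The rest of the pathway was followed in a list of 127 other genes, of which 114 have a row in the table and 81 were tested. Of these, 6 rose and 1 fell at an adjusted p under 0.05, against 1.07% and 0.371% of all tested genes. The list was written with earlier results of these data known, and its counts are a description.
Of 27 tested genes known as TGF-beta targets, 5 rose and 1 fell, and the median log2 fold change was 0.17, with 20 above and 7 below 0. Over all 11844 tested genes 5598 were above and 6246 below 0, with a median of -0.01. CCN1 and CCN2, the matricellular genes listed as CYR61 and CTGF, rose with the smallest p of the list. CCN2 had read counts of 1143, 1279 and 1201 under siCTR and of 2358, 2192 and 2268 under siLSD1, a log2 fold change of 0.91 (SE 0.11, Benjamini-Hochberg adjusted p = 0.00149 in edgeR). CCN1 had read counts of 2287, 2405 and 2433 under siCTR and of 4612, 4030 and 4607 under siLSD1, a log2 fold change of 0.89 (SE 0.10, Benjamini-Hochberg adjusted p = 0.00149 in edgeR). Both genes are also known targets of YAP and TEAD.
IGFBP3, which encodes an insulin-like growth factor binding protein, had read counts of 248, 299 and 270 under siCTR and of 538, 486 and 629 under siLSD1, a 2.01-fold rise (Benjamini-Hochberg adjusted p = 0.00356 in edgeR). FN1, the fibronectin gene, had read counts of 382, 238 and 433 under siCTR and of 640, 609 and 794 under siLSD1, a 1.94-fold rise (Benjamini-Hochberg adjusted p = 0.0216 in edgeR). The FN1 call was lost when siLSD1 replicate 1 or siLSD1 replicate 3 was left out, at Benjamini-Hochberg adjusted edgeR p-values of 0.0505 and 0.0541.
THBS1, whose product thrombospondin can release TGF-beta from its latent complex, had read counts of 1770, 1579 and 1914 under siCTR and of 2540, 2494 and 2486 under siLSD1. Its log2 fold change was 0.51 (SE 0.11, Benjamini-Hochberg adjusted p = 0.0341 in edgeR), and this call was lost with any 1 library left out, at 0.0772, 0.0596 and 0.0987 without siCTR replicates 1, 2 and 3 and 0.0868, 0.239 and 0.0552 without siLSD1 replicates 1, 2 and 3 (adjusted p, edgeR with Benjamini-Hochberg adjustment).
CDKN1A, the gene of the cell cycle inhibitor p21 and also a target of p53, went against the other called targets. It had read counts of 665, 722 and 749 under siCTR and of 408, 378 and 359 under siLSD1, and it fell by 0.90 on the log2 scale (SE 0.12, Benjamini-Hochberg adjusted p = 0.00356 in edgeR). Each siLSD1 library was below each siCTR library, and the call held with any 1 library left out, with Benjamini-Hochberg adjusted edgeR p-values up to 0.0220.
Of 7 tested BMP targets other than the ID genes, edgeR called 0 at an adjusted p under 0.05 and DESeq2 called 1 (GATA2). Of the 7, 5 were below 0, against 6246 of all 11844 tested genes, and the median log2 fold change was -0.26. GATA2 was nearest to the threshold, with read counts of 854, 730 and 844 under siCTR and of 632, 542 and 559 under siLSD1, a log2 fold change of -0.49, and an adjusted p of 0.0647 from edgeR with Benjamini-Hochberg adjustment. For GATA2 the Benjamini-Hochberg adjusted p was 0.0183 in DESeq2, and in edgeR it was 0.0119 with the GC and length correction and 0.0435 with no filter. It did not pass with limma-voom (0.0698), with library size scaling in edgeR (0.0756) or with 1 library left out in edgeR (0.0625 to 0.332), also Benjamini-Hochberg adjusted. At an unadjusted p under 0.05 in edgeR, 2 of these 7 genes were lower and 0 higher, against 6.55% and 7.48% of all tested genes. None of the 13 tested receptors and adaptors and none of the 21 tested SMAD regulators and partners in the list passed the adjusted threshold in edgeR, where 0 and 4 of them had an unadjusted p under 0.05, against 14.0% of all tested genes. DESeq2 called 0 and 1 of them (2.73% of all tested genes), the latter being RBL1, and with the GC and length correction edgeR called 0 and 3 (7.41% of all tested genes), the latter being RBL1 (higher) and RUNX3 and E2F5 (lower), all 3 named after their values were seen. The difference between the TGF-beta and the BMP targets was not tested.

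**Figure D4:**
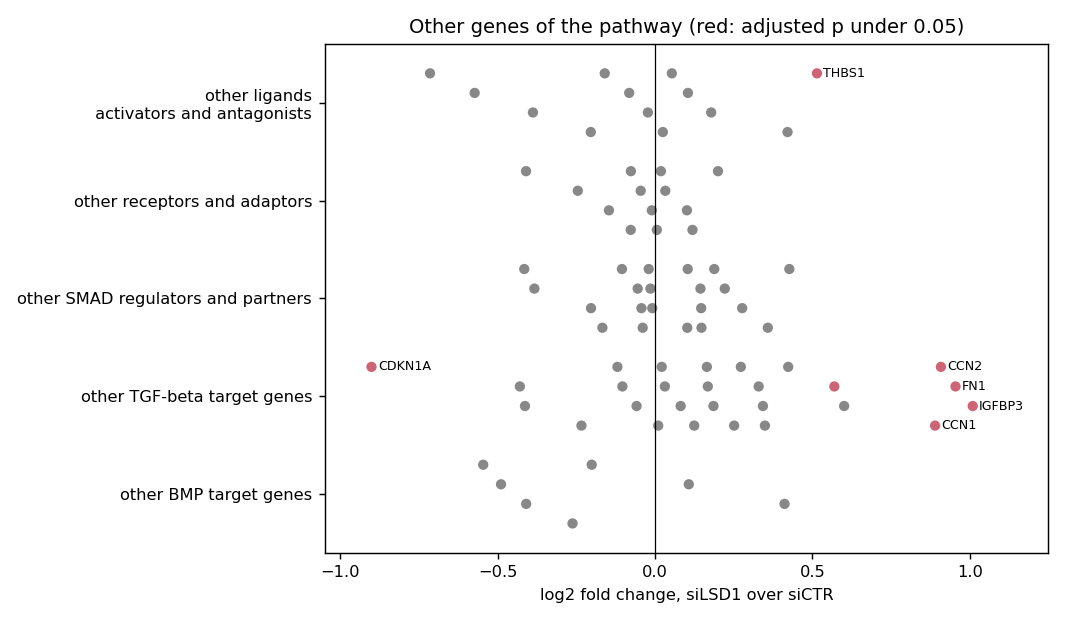
Log2 fold change (x axis, siLSD1 over siCTR) of the 81 other tested pathway genes in 5 lists, 1 point per gene with a vertical offset for legibility. The 7 genes in red have an adjusted p under 0.05, those described in the text carry their name, and 6 of the 7 lie to the right of 0.

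Among the 44 signalling genes the fold changes were also set against GC content. The 8 genes that were higher at an unadjusted p under 0.05 had transcripts with 38.8% to 57.2% GC (median 51.0%), and the 4 that were lower had 56.7% to 67.7% GC (median 61.4%). Across the 44 genes, which share the same 6 libraries and are not independent replicates, Pearson's r between log2 fold change and GC content was -0.23 and Spearman's rho was -0.39, and with the GC and length correction these were -0.10 and -0.25. TGFBR1, TGFBR2, LTBP1 and TGFBI kept log2 fold changes of 0.50, 0.44, 0.45 and 1.17 with the correction, and ID1 was at -0.58. The part of GC content in the remaining differences was not tested further.

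**Figure D5:**
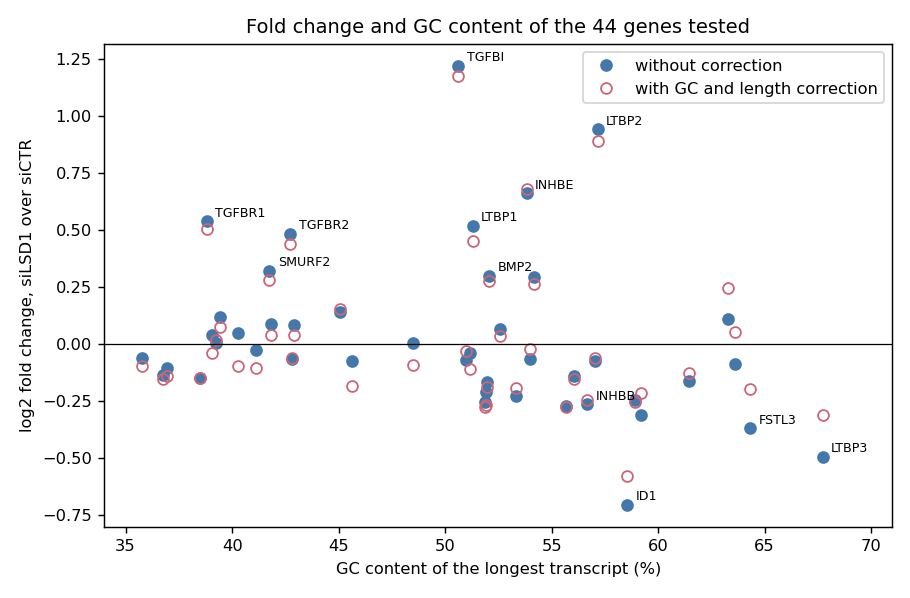
Log2 fold change (siLSD1 over siCTR) of the 44 tested genes against the GC content of their longest transcript (%), without (blue, filled) and with (red, open) the correction for GC content and length. Names mark the 12 genes with an unadjusted p under 0.05. The correction moves FSTL3 and LTBP3, at the GC-rich end, towards 0.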

How the data were processed

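RNA of U2OS cells was sequenced in 3 siCTR and 3 siLSD1 libraries, grouped by their labels. STAR is the aligner named by the authors, who deposited raw read counts per gene, and these counts were tested here. The genome build, annotation and counter are not given in the sources used here. FPKM values were deposited by the authors and were used for levels between genes. A size-factor normalized signal, also deposited by the authors, was not used. The authors also deposited a second set of read counts in tables for 3 pairs of libraries, with a median ratio of 1.11 to the first, which served as an alternative. Columns with the authors' own fold changes and p-values from DESeq2 were not used, nor were 2 files that hold only that comparison.

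Counts were scaled with TMM, filtered with filterByExpr (minimum count 10) and tested with edgeR 4.0.16 (quasi-likelihood test, no covariates) in R 4.3.3, and p-values were adjusted over 11844 genes with the Benjamini-Hochberg method. Intervals are 95% intervals from the same fit. The biological coefficient of variation was 12.6%. CPM are TMM-scaled, and log-CPM use a prior count of 2. DESeq2 1.42.0 and limma 3.58.1 (voom) were alternatives. GC content and length were those of the longest GENCODE release 44 transcript, known for 99.3% of tested genes. The correction added each library's lowess trend (span 0.3) to the offsets. GC-rich and GC-poor genes are those above 56.5% and below 41.5% GC. On simulated counts for 11844 genes, 168 of 200 genes changed by 1 on the log2 scale were recovered, with 8 false calls. The simulated libraries carried no GC trend. Smaller changes, such as those of TGFBR1 (0.54) and LTBP1 (0.52), were not simulated, so their recovery is not known. No 2 libraries agreed within sampling noise (chi-square per degree of freedom 6.45 to 39.3). Coordinates come from GENCODE on GRCh38 and promoters from RefSeq on GRCh38.p14.

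The genes and lists were chosen with earlier results of these data known, so no p is given over a list. Values are given for genes with an unadjusted p under 0.05, for the most abundant and the most changed gene of each role, and in shorter form for the remaining genes. Of the other pathway genes, those with an adjusted p under 0.05 and then those with the smallest p, up to 8 in all, are named, except for an item that is not reported here. RBL1, RUNX3 and E2F5 fall outside this rule and were named after their values were seen.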

Additional observations from a re-analysis of the deposited data

How the results depend on the processing

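Each result was recomputed in 16 other fits. KDM1A kept its direction and call in all of them, with a log2 fold change between -2.50 and -2.38. The median log2 fold change of the 44 signalling genes stayed below 0 in all of them, from -0.08 with the GC and length correction to -0.03 without siCTR replicate 3. TGFBI was called in all 16 fits. TGFBR1 was called in the 10 fits with all libraries, and LTBP1 in 9 of these. The number of signalling genes called higher at an adjusted p under 0.05 was 3, and it was 5 with the replicate block (4.13% of all genes) and 5 with the GC and length correction and replicate block together (6.17%), the added genes being TGFBR2 and INHBE in both. It ranged from 1 to 2 with 1 library left out. The number called lower was 0, and it was 1 with DESeq2, 1 with no filter, 3 with the replicate block (3.44% of all genes), 3 with the GC and length correction (2.91%), 3 with that correction and the replicate block (4.89%; FSTL3, LTBP3 and ID1 with the block alone), and 0 with any 1 library left out. At an unadjusted p under 0.05 the number lower was 4, and it was 7 with the GC and length correction (11.9% of all genes), 8 with that correction and the replicate block (14.0%), and 1 to 4 with 1 library left out (3.79% to 7.43%). Of the other pathway genes, 6 were called higher, and 11 with the replicate block (4.13% of all genes), 10 with the GC and length correction (4.5%), 12 with both (6.17%), and 3 to 5 with 1 library left out (0.375% to 0.827%). For the other pathway genes called lower, the number was 1, and it was 3 with DESeq2 (0.954% of all genes), 3 with no filter (0.654%), 6 with the replicate block (3.44%), 4 with the GC and length correction (2.91%) and 6 with both (4.89%). The cause of these shifts was not tested. The replicate block raised the number of all genes called from 171 to 897 (7.57%). Libraries with the same replicate number had deviations from the group mean that correlated at 0.33, 0.07 and 0.31 across genes for numbers 1, 2 and 3. For different numbers these correlations were -0.29 to 0.0072, and every library correlated best with its own number. Whether the numbers mark pairs of cultures is not stated in the sources used here. The reported fit has no term for the replicate number, and the replicate block adds one.

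Of the 44 signalling genes, 13 changed sign in some fit, with an absolute log2 fold change of at most 0.23 in the reported fit. With the GC and length correction, TGFB1 was at 0.0534, GDF11 at -0.0923, BMPR2 at -0.0410 and SMAD2 at -0.0949, and with the replicate block added these were 0.0534, -0.0947, -0.0400 and -0.0641. With the second counting GDF11 was at -0.00653 and SMAD1 at -0.0505. With 1 library left out the ranges were -0.17 to 0.0410 for TGFB1, -0.10 to 0.0950 for GDF11, -0.0161 to 0.23 for FST, -0.0582 to 0.20 for ACVR1B, -0.33 to 0.0275 for ACVR2A, -0.14 to 0.0627 for ACVR2B, -0.0120 to 0.10 for BMPR2, -0.15 to 0.0336 for BAMBI, -0.0679 to 0.0684 for SMAD1, -0.00559 to 0.10 for SMAD2, -0.13 to 0.0420 for SMAD3, -0.12 to 0.00104 for SMAD7 and -0.39 to 0.16 for ID2. The number of genes with at least 1 FPKM was 42 or 43 however the level was taken. Depth limits the 6 genes with too few reads to be tested. The p-values come from a model over 3 libraries per group.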
